A study of Mus musculus with 24 samples.

Results

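The genes described here are 10 direct transcriptional targets of p53, the tumour suppressor encoded by Trp53 in the mouse. They were taken by gene name from the count tables, which list 54532 genes, and all 10 passed the filter on low counts in every comparison. By their usual roles, 3 are arrest and feedback targets: Cdkn1a, Ccng1 and Mdm2. The other 7, Bbc3, Pmaip1, Bax, Trp53inp1, Phlda3, Aen and Eda2r, are proapoptotic.

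RNA came from brains of C57BL/6J mice, all fed ad libitum and all given tamoxifen at postnatal day 28 (P28). Mutants carried a tamoxifen-induced mutation of Polr3a, the gene for the largest subunit of RNA polymerase III, and the controls were labelled wild type. Cerebrum was taken at P42 and P75 and cerebellum at P42, which is 14 or 47 days after tamoxifen. Each of the 6 groups held 4 libraries, made by polyA enrichment from Trizol extracts. The P42 groups mixed the sexes (2 males and 2 females, or 3 males and 1 female in wild type cerebellum), and the P75 libraries were from males. The labels do not name the Cre driver, nor say whether wild types carried one, so an effect of the mutation and one of a Cre transgene cannot be told apart. They also do not say that each library came from its own animal, so p-values measure the spread between libraries.

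In resting cells p53 is kept scarce because MDM2 marks it for degradation. Damage to DNA, faulty ribosome assembly and other stresses release p53, which then binds paired copies of a short half-site near its targets. Some targets halt the cell cycle or feed back on p53, and others commit the cell to death through the mitochondrion. Both kinds have been studied in neurons, where p53-driven death occurs in injury and degeneration although the cells no longer divide.

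In the 8 members that have a promoter window in the RefSeq promoter table (build GRCm38.p6, 250 bases before to 50 after a start), a script searched both strands for the p53 half-site consensus of 10 letters. A half-site was found for 5 members: Cdkn1a, Ccng1, Mdm2, Bax and Aen. Of 27025 genes with a window, 9.55% held at least 1. Cdkn1a was the only member with a pair of half-sites within 13 bases of each other, an arrangement present in 0.0731% of 32851 windows. The stretches are shown because they are the letters the named factor is known to read; capitals mark the half-sites, and a match is a description, not a measured binding site.
Cdkn1a, chr17:29090886-29090957, plus strand: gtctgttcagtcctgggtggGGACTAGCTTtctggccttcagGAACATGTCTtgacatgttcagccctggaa
Ccng1, chr11:40755442-40755491, minus strand: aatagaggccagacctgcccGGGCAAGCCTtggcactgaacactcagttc
Mdm2, chr10:117710915-117710964, minus strand: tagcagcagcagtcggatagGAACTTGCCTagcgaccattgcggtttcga
Bax, chr7:45467070-45467119, minus strand: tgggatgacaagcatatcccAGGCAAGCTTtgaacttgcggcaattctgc
Aen, chr7:78895937-78895946, plus strand: GGGCTTGTCC
The half-sites of Cdkn1a began 73 and 51 bases before 1 of its annotated starts, with 12 bases between them. A second annotated start of Cdkn1a had a window without a half-site. The half-sites of Ccng1, Mdm2 and Bax began 185, 186 and 201 bases before the start. The half-site of Aen lay 121 bases before one annotated start and inside the transcript of another. All 3 arrest and feedback targets therefore had a half-site in at least 1 window, and 2 of the proapoptotic targets did. Of the other proapoptotic targets, Bbc3, Phlda3 and Eda2r had a window without a half-site. Pmaip1 and Trp53inp1 had no window and could not be searched.

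Library totals ran from 13832721 to 23175864 counts. Polr3a itself did not differ (in cerebrum at P75, 31.6 ± 1.32 counts per 1000000, CPM, in mutants against 33.8 ± 3.59 CPM in wild types, mean ± SD, n = 4 each; the polyA data do not show which allele was read). Esr1, which encodes estrogen receptor alpha, separated the genotypes in every tissue and age (at P75, 88.4 ± 32.8 against 5.96 ± 0.881 CPM). Several libraries stood apart at P42. In cerebrum, the summed level of 14 markers of thalamus, hypothalamus and midbrain was 760 to 1380 CPM in mutants and 225 to 458 CPM in wild types. The 7 markers of cortical and hippocampal excitatory neurons were summed at 862 to 4800 CPM in mutants and 3160 to 6090 CPM in wild types. Mutants 3 and 4 had the highest mean log2 levels of the former (5.79 and 5.65) and the lowest of the latter (4.03 and 4.90). In cerebellum, the mean log2 level of the 8 choroid plexus markers was 0.79 in mutant 1, 4.0 to 4.40 in the other mutants and 4.91 to 5.59 in wild types. The cerebellar neuron markers summed to at least 1280 CPM in every cerebellar library and at most 201 CPM in every cerebral one, so this marker list separated the tissues as labelled. In cerebrum at P42 its mean log2 level was nonetheless raised in wild type 1 (4.53) and mutant 4 (4.01), against 1.11 to 2.17 in the others.

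At P75, 47 days after tamoxifen, p53 targets of both kinds were more abundant in mutant cerebrum. All 3 arrest and feedback targets and 6 of the 7 proapoptotic targets rose, none fell, and Eda2r missed the threshold. Among all 17523 genes tested, 7.66% were called higher and 6.62% lower (edgeR quasi-likelihood F test, adjusted p under 0.05). The largest log2 fold change among the members belonged to Pmaip1 (2.6), followed by Bbc3 (1.86), both of which encode BH3-only proteins that switch on the mitochondrial death pathway. In bulk tissue, more cells of a type and more RNA per cell cannot be told apart, and this holds for every level below.

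**Figure D1:**
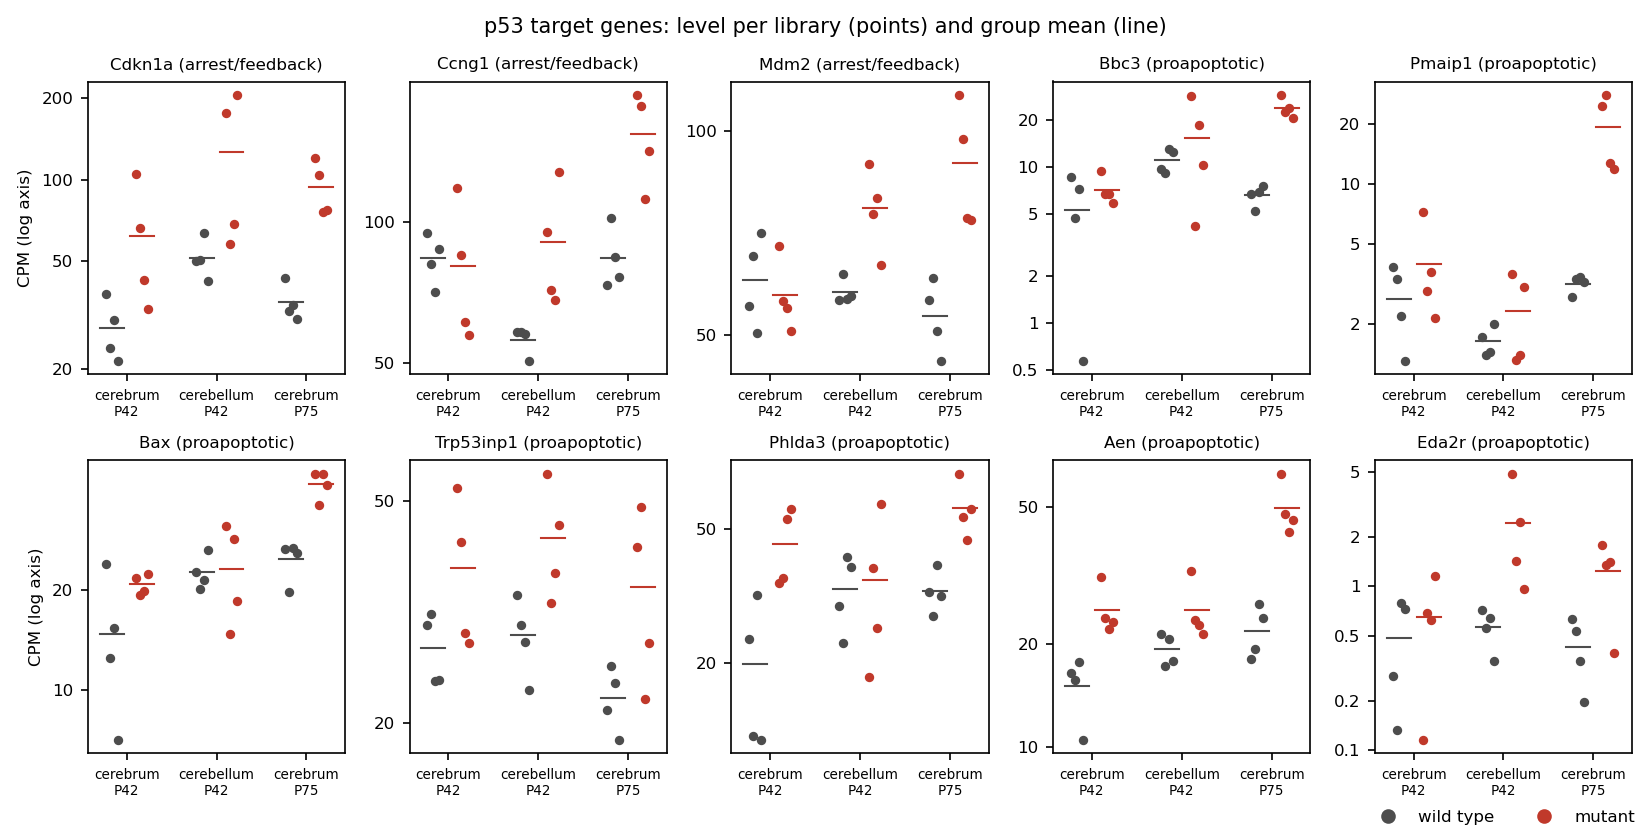
Level of each p53 target in each library, in CPM on a log axis. Points are libraries, lines are group means over 4 libraries, grey is wild type and red is mutant. In cerebrum at P75 the mutants of 8 genes lie above all wild types; at P42 the groups of most genes overlap.

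Cdkn1a (ENSMUSG00000023067, chromosome 17, 29090976 to 29100727, mm10) encodes p21, an inhibitor of cyclin-dependent kinases and the classical arrest target. At P75 its level was 120, 104, 75.7 and 77.2 CPM in the mutants and 43.3, 32.8, 34.6 and 30.7 CPM in the wild types. Every mutant lay above every wild type, and mutants 1 and 2 were the highest. The log2 fold change was 1.42 ± 0.15 (SE; 2.67-fold, adjusted p = 2.49e-05, edgeR quasi-likelihood test).

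Ccng1 (ENSMUSG00000020326, chromosome 11, 40748552 to 40755311) encodes cyclin G1, which recruits protein phosphatase 2A to MDM2. It was at 187, 177, 112 and 142 CPM in the mutants and 73.3, 102, 84.0 and 76.1 CPM in the wild types. The groups did not overlap, although mutant 3 exceeded the highest wild type only narrowly. The log2 fold change was 0.88 ± 0.14 (edgeR adjusted p = 0.00102). Mdm2 (ENSMUSG00000020184, chromosome 10, 117688875 to 117710758) encodes the ubiquitin ligase that keeps p53 low and is itself a p53 target. Its level was 113, 97.2, 74.3 and 73.9 CPM in the mutants and 56.3, 60.6, 50.7 and 45.8 CPM in the wild types, again without overlap. Mutants 1 and 2 were the highest here too, and the log2 fold change was 0.75 ± 0.13 (edgeR adjusted p = 0.00184).

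Among the proapoptotic targets, Bbc3 (ENSMUSG00000002083, chromosome 7, 16308393 to 16318205) encodes PUMA. It was at 29.0, 22.6, 23.8 and 20.5 CPM in the mutants and 6.69, 5.20, 6.90 and 7.5 CPM in the wild types. The lowest mutant was well above the highest wild type, and the mutants were close to each other. The log2 fold change was 1.86 ± 0.14 (3.64-fold, edgeR adjusted p = 2.6e-06). Pmaip1 (ENSMUSG00000024521, chromosome 18, 66458604 to 66465550) encodes NOXA, which neutralises MCL1. Its mutants fell into a high pair and a low pair, 24.6 and 27.9 CPM in mutants 1 and 2 and 12.7 and 11.9 CPM in mutants 3 and 4, over wild types at 2.71, 3.33, 3.42 and 3.22 CPM. Even the low pair was far above every wild type, and the log2 fold change was 2.6 ± 0.27 (6.05-fold, edgeR adjusted p = 2.41e-05).

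Aen (ENSMUSG00000030609, chromosome 7, 78895854 to 78911209), an apoptosis-enhancing nuclease, was at 62.5, 47.7, 42.3 and 45.9 CPM in the mutants and 18.0, 19.3, 26.1 and 23.7 CPM in the wild types. The groups were well apart, with a log2 fold change of 1.18 ± 0.14 (edgeR adjusted p = 6.81e-05). Bax (ENSMUSG00000003873, chromosome 7, 45461697 to 45466898), whose product perforates the outer mitochondrial membrane, was at 44.7, 36.2, 44.9 and 41.6 CPM against 26.6, 19.8, 26.9 and 25.9 CPM. Its mutants spread least of the 10 genes, with a coefficient of variation of 9.70%, and the log2 fold change was 0.75 ± 0.11 (edgeR adjusted p = 0.000436). Phlda3 (ENSMUSG00000041801, chromosome 1, 135766119 to 135769136), which encodes a small pleckstrin-homology protein that holds back AKT, was at 72.7, 54.0, 46.4 and 57.3 CPM against 32.6, 27.7, 39.2 and 31.6 CPM. These groups did not overlap either, and the log2 fold change was 0.81 ± 0.13 (edgeR adjusted p = 0.00109).

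Trp53inp1 and Eda2r were the least firm of the members at P75. Trp53inp1 (ENSMUSG00000028211, chromosome 4, 11156431 to 11174379) encodes a stress-induced partner of p53. It was at 41.3, 48.8, 22.1 and 27.8 CPM in the mutants and 21.1, 25.3, 23.6 and 18.7 CPM in the wild types. Mutant 3 lay inside the wild type range and mutants 1 and 2 carried most of the difference. Its log2 fold change was 0.66 ± 0.20 (edgeR adjusted p = 0.0401), and the call was lost without mutant 1 (0.57, adjusted p = 0.124), mutant 2 (0.45, 0.116), wild type 1 (0.63, 0.0931), wild type 3 (0.69, 0.068) or wild type 4 (0.58, 0.116). Eda2r (ENSMUSG00000034457, chromosome X, 97333840 to 97377216), a receptor of the TNF family that binds ectodysplasin A2, was scarce at 1.78, 1.36, 1.40 and 0.394 CPM against 0.631, 0.534, 0.352 and 0.197 CPM. Mutant 4 overlapped the wild types, and the log2 fold change of 1.52 ± 0.49 did not pass the test (edgeR adjusted p = 0.0509). It did pass without mutant 4 (1.81, edgeR adjusted p = 0.0109). In the authors' deposited table all 10 members were called at P75, Eda2r with a log2 fold change of 1.53 (adjusted p = 0.037).

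**Figure D2:**
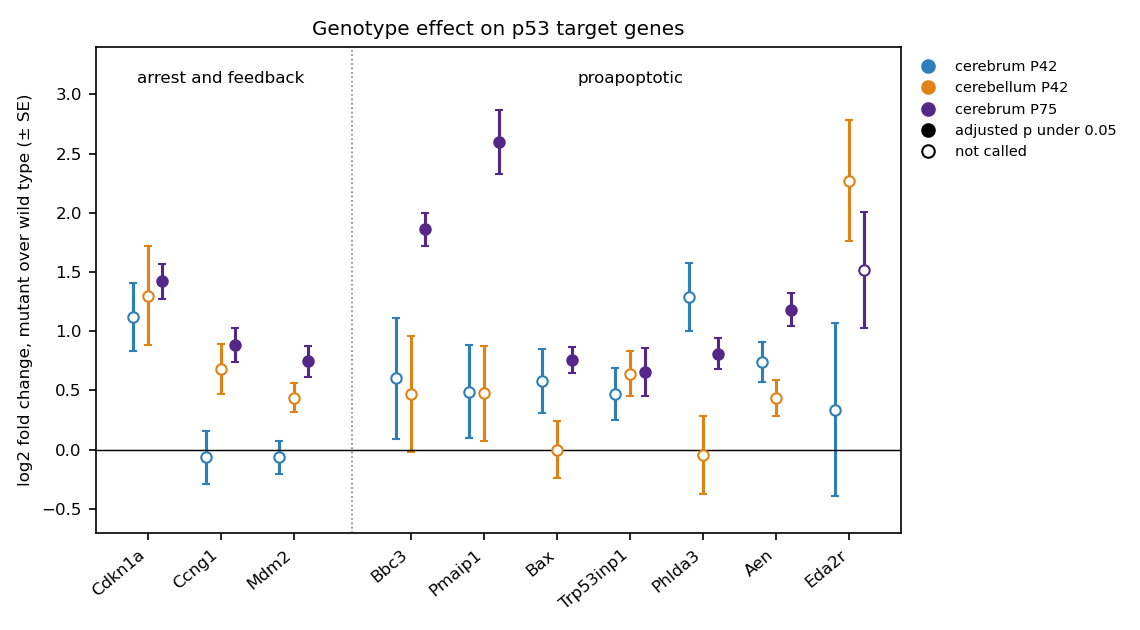
Log2 fold change of mutant over wild type for each p53 target, with bars of 1 SE, in the 3 comparisons of 4 against 4 libraries. Filled points have an adjusted p under 0.05: 9 of 10 in cerebrum at P75, and none in cerebrum or cerebellum at P42.

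The arrest and proapoptotic targets covered overlapping ranges of log2 fold change at P75. The 3 arrest and feedback targets had a median of 0.88 (0.75 to 1.42) and the 7 proapoptotic targets a median of 1.18 (0.66 to 2.6), beside a median of 0.0031 over all genes tested. The groups of 8 members did not overlap, mutants higher, as for 10.1% of all genes. Mutants 1 and 2 were above mutants 3 and 4 for Cdkn1a, Ccng1, Mdm2, Pmaip1, Trp53inp1 and Aen. For Bbc3, Bax, Phlda3 and Eda2r the mutants did not sort into these pairs.

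Other measures moved with the mutant libraries at P75. The 9 markers of microglia and myeloid cells summed to 317 to 596 CPM in mutants and 242 to 254 CPM in wild types. The 8 interferon-response genes summed to 315 to 921 CPM in mutants and 30.2 to 37.5 CPM in wild types. On the mean log2 scale both lists were highest in mutants 1 and 2, at 5.34 and 5.38 for myeloid markers against 4.67 and 4.50 in mutants 3 and 4, and at 6.62 and 6.39 for interferon-response genes against 5.67 and 5.07. Esr1 was also highest in them, at 95.5 and 132 CPM against 64.6 and 61.8 CPM. Astrocyte markers summed to 1590 to 3130 CPM in mutants and 1220 to 1290 CPM in wild types. Of these markers Gfap alone did not overlap (599 to 1780 against 198 to 243 CPM), while Aqp4, Aldh1l1, Slc1a3 and Gja1 did. The excitatory neuron markers summed to 2470 to 3620 CPM in mutants against 4280 to 4660 CPM in wild types. Endothelial markers summed to 190 to 202 CPM in mutants and 147 to 159 CPM in wild types. The share of counts from mitochondrially encoded genes was 3.13% to 3.85% in mutants and 4.44% to 5.64% in wild types, again without overlap. The 6 T cell markers summed to 0.998 to 2.02 CPM in mutants and at most 1.11 CPM in wild types, so these sums overlapped. Their mean log2 levels did not overlap, mutants higher, but all these markers were scarce. Cd3d, Cd3g and Cd8a were at 0 in every wild type, whereas Cd3e, Cd2 and Trac were detected there. Trac reached 1 CPM in wild types and 0.557 CPM in mutants. None of these lists had all markers at 0, and the part of these measures in the rise of the p53 targets was not tested.

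At P42, 14 days after tamoxifen, no member passed the test in either tissue. In cerebrum 0.0165% of 18205 genes were called (edgeR quasi-likelihood F test), and 3 members had an unadjusted p under 0.05 (Cdkn1a, Phlda3 and Aen), beside 12.6% of all genes. With DESeq2 as the test the same 3 members were called, and in the authors' deposited table Phlda3 (log2 fold change 1.18, adjusted p = 0.0387) and Aen (0.72, 0.0401) were, with Cdkn1a at 0.0586. Those 3 genes had log2 fold changes of 1.29 ± 0.29, 0.74 ± 0.17 and 1.12 ± 0.29 for Phlda3, Aen and Cdkn1a (edgeR adjusted p = 0.275, 0.285 and 0.326).

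Cdkn1a in cerebrum at P42 was at 105, 66.2, 42.7 and 33.5 CPM in the mutants and 38, 23.9, 30.5 and 21.5 CPM in the wild types. Mutant 4 overlapped the wild types and mutant 1 stood far above the rest. Mutant 1 was also the highest mutant for Ccng1 (118, 85, 61.2 and 57.4 CPM, against 94.8, 81.4, 70.9 and 87.4 CPM in wild types). The same library led for Pmaip1 (7.23, 2.90, 3.61 and 2.13 against 3.85, 3.33, 2.17 and 1.30 CPM), for Trp53inp1 (52.6, 42.2, 29.0 and 27.9 against 30, 31.4, 23.8 and 23.9 CPM) and for Mdm2 (67.6, 56.2, 54.9 and 50.7 against 55.1, 65.3, 50.4 and 70.6 CPM). For all 4 of these genes the groups overlapped.

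Phlda3 had the opposite order among the same mutants. It was at 34.6, 35.7, 53.4 and 57.0 CPM in mutants 1 to 4 and 23.7, 12.2, 31.9 and 11.9 CPM in wild types, so that mutants 3 and 4 were the highest. These 2 libraries are those with the most thalamus and midbrain marker RNA. The 2 lowest, wild types 2 and 4, are those with the lowest slope of level over transcript GC content (-0.162 and -0.419, the measure described for Bbc3 and Bax), and Phlda3 is GC-rich as well; with that slope as a covariate its log2 fold change was 0.85 and did not pass the test. Without mutants 3 and 4, the log2 fold change of Phlda3 was 0.97 and that of Cdkn1a 1.57. With the thalamus and midbrain marker level as a covariate they were 0.54 and 1.91, and none of these 4 values passed the test. Aen was at 31.2, 23.8, 22.0 and 23.1 CPM against 16.4, 15.7, 17.7 and 10.5 CPM, with every mutant above every wild type. Non-overlapping groups with mutants higher were found for Phlda3 and Aen among the members, and for 3.53% of all genes.

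The arrest and feedback targets had a median log2 fold change of -0.07 in cerebrum at P42 and the proapoptotic ones 0.58 (0.34 to 1.29), with 0.013 over all genes. Neither median was steady. The first turned positive without mutant 3 (0.07), mutant 4 (0.06), both (0.26) or wild type 4 (0.01), and the second ranged from 0.42 to 0.84 when 1 library was left out. With the thalamus and midbrain level as a covariate the medians were 0.49 and 1.15, and the first was also 0.21 in males alone and 0.13 with the GC slope as a covariate. Ccng1 (-0.07 ± 0.22) and Mdm2 (-0.07 ± 0.14) set the first median, while Cdkn1a was at 1.12. The other proapoptotic values were 0.60 ± 0.51 for Bbc3, 0.58 ± 0.27 for Bax, 0.49 ± 0.39 for Pmaip1, 0.47 ± 0.22 for Trp53inp1 and 0.34 ± 0.73 for Eda2r, and none passed the edgeR test. Eda2r was at or under 1.16 CPM in every library.

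Bbc3 and Bax in cerebrum at P42 varied more among the wild types than among the mutants. Bbc3 was at 9.38, 6.67, 6.69 and 5.85 CPM in mutants and 8.61, 4.74, 7.25 and 0.572 CPM in wild types. Bax was at 21.7, 19.4, 19.9 and 22.4 CPM in mutants and 24, 12.5, 15.4 and 7.08 CPM in wild types. For both genes wild type 4 was by far the lowest library and wild type 2 the next. Transcripts of these genes are GC-rich (65.2% and 63.5% in the longest GENCODE transcript, against 38.8% to 54.4% for the members other than Phlda3, at 62.6%). A slope of log2 CPM over transcript GC was taken in each library, per 10 percentage points of GC and relative to the mean of its tissue and age. It was -0.419 in wild type 4 and -0.162 in wild type 2, and 0.0533 to 0.157 in the other 6 cerebral libraries of P42. With this slope as a covariate, chosen after seeing the data, the log2 fold change of Bbc3 went from 0.60 to -0.14.

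**Figure D3:**
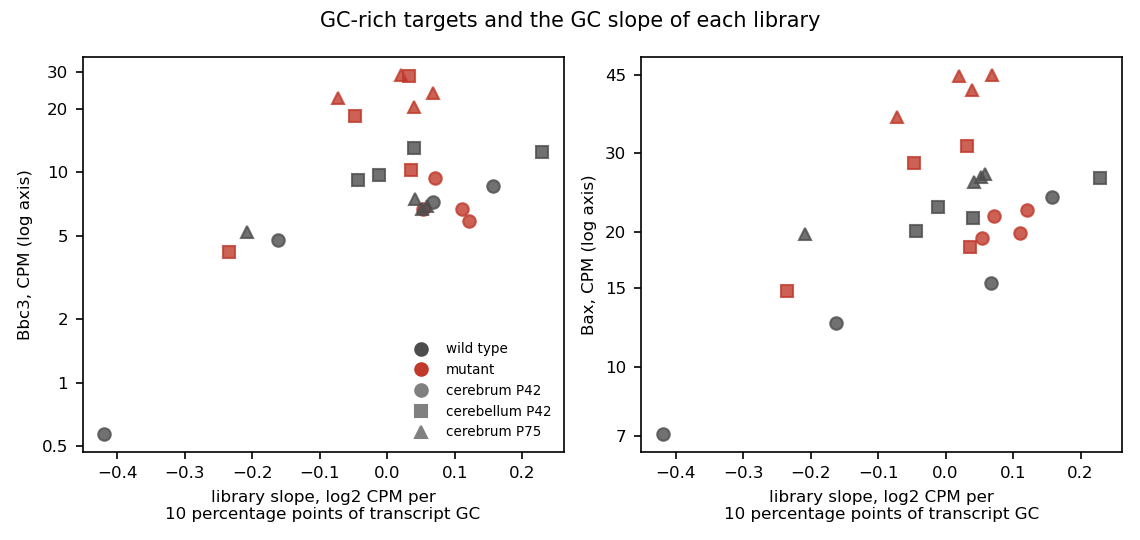
Level of Bbc3 and Bax in each library (CPM, log axis) against the library's slope of log2 CPM over transcript GC content, relative to its tissue and age. Grey is wild type, red is mutant, and symbols mark tissue and age. Wild type 4 of cerebrum P42, at a slope of -0.419, has the lowest level of both genes (0.572 and 7.08 CPM), and the P75 mutants stay high at slopes near 0.

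Across the 24 libraries, with levels centred on their group means, the slope correlated with Bax (r = 0.77) and Bbc3 (r = 0.71) and with the other members at -0.44 to 0.44. These correlations are over libraries that also differ in dissection and depth, and are given as a description. The GC slope did not separate the genotypes at P75 (-0.0725 to 0.0684 in mutants and -0.208 to 0.0588 in wild types). With the slope as a covariate all 10 members were called there.

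In cerebellum at P42, 0.0114% of 17616 genes were called, and again none of the members (edgeR quasi-likelihood F test). All 3 arrest and feedback targets and 3 proapoptotic ones (Trp53inp1, Aen and Eda2r) had an unadjusted p under 0.05, beside 4.65% of all genes. DESeq2 called 1 member, Eda2r, and the authors' deposited table none. Mutants lay above all wild types for Ccng1, Mdm2, Aen and Eda2r, as for 1.85% of all genes.

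Cdkn1a in cerebellum was at 175, 57.7, 68.7 and 205 CPM in the mutants and 50, 50.4, 63.4 and 42.2 CPM in the wild types. Mutants 1 and 4 were far higher than all other libraries, whereas mutant 2 was within the wild type range. Mutant 4 also had the lowest mean log2 level of cerebellar neuron markers (7.24, against 7.91 to 9.05 in the other mutants and 8.21 to 8.88 in wild types), and its part was not tested. The log2 fold change was 1.30 ± 0.42 (edgeR adjusted p = 0.967). Ccng1 (95.0, 71.6, 68.2 and 128 CPM against 58.0, 58.0, 57.6 and 50.4 CPM) was highest in the same 2 mutants, with a log2 fold change of 0.68 ± 0.21. Mdm2 (89.3, 75.5, 79.7 and 63.5 against 56.3, 61.6, 56.5 and 57.0 CPM) was instead lowest in mutant 4, with 0.44 ± 0.12. Neither passed the edgeR test (adjusted p = 0.967 and 0.866).

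Eda2r had the largest log2 fold change among the members in cerebellum, 2.27 ± 0.51, which did not pass the test (edgeR adjusted p = 0.727). Its level was 4.87, 1.43, 2.46 and 0.968 CPM in mutants and 0.716, 0.555, 0.646 and 0.353 CPM in wild types, so mutant 1 was far above the others. Bbc3 was likewise highest in mutant 1 (28.7, 4.19, 18.5 and 10.3 CPM against 9.74, 9.16, 13.1 and 12.5 CPM), and its log2 fold change of 0.47 ± 0.49 became -0.57 without that library. Mutant 2, with the lowest GC slope in cerebellum (-0.235), had the lowest Bbc3 and Bax levels. Mutant 1 is the library nearly without choroid plexus RNA, and with that marker level as a covariate Eda2r had 1.0, Cdkn1a 0.58 and Bbc3 -1.41. The part of the marker level in these values cannot be told apart from mutant 1 itself. Nor can it be told apart from genotype, since every mutant had a lower level than every wild type (0.79 to 4.40 against 4.91 to 5.59).

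Of the remaining cerebellar members, 2 leaned higher in mutants and 3 were uneven or near 0. Trp53inp1 (55.9, 32.9, 37.2 and 45.3 against 34.0, 30, 28 and 23 CPM) and Aen (32.6, 23.4, 22.7 and 21.4 against 21.3, 17.2, 20.7 and 17.8 CPM) had log2 fold changes of 0.64 ± 0.19 and 0.44 ± 0.15, without passing the edgeR test (adjusted p = 0.967 each). Pmaip1 stayed at or under 3.53 CPM, with 0.48 ± 0.40. Phlda3 ranged more widely among mutants (18.2, 38.3, 25.5 and 59.3 CPM) than among wild types (29.6, 23, 41.2 and 38.6 CPM), and its log2 fold change was -0.04 ± 0.33. Bax was between 14.8 and 31.2 CPM in mutants and between 20.1 and 26.4 CPM in wild types, with a log2 fold change of 0.00 ± 0.24. The medians were 0.68 for the arrest and feedback targets and 0.47 for the proapoptotic targets, with 0.010 over all genes; the second was 0.22 without mutant 1, 0.72 without mutant 2, 0.12 with the choroid plexus covariate and 0.86 with the GC slope.

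**Figure D4:**
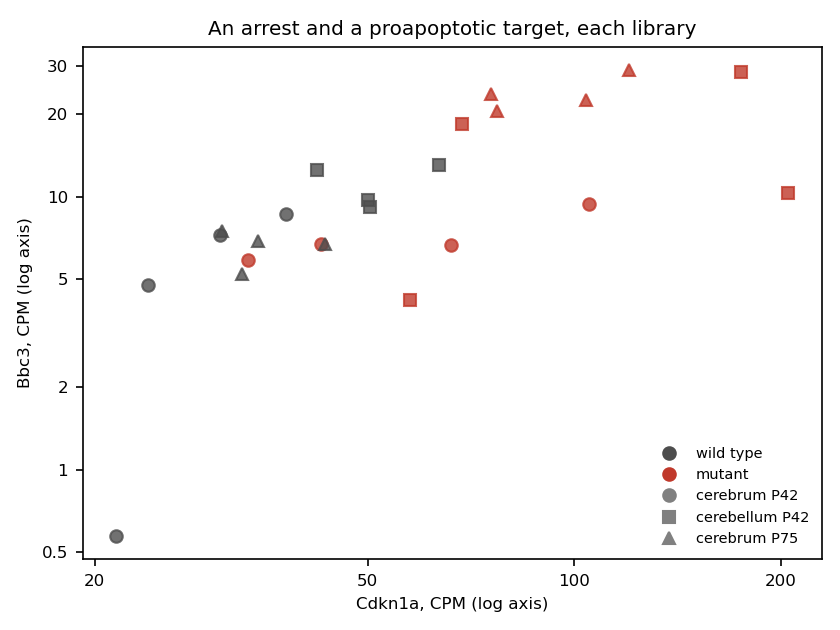
Cdkn1a against Bbc3 in each of the 24 libraries, in CPM on log axes. Red is mutant, grey is wild type, and symbols mark tissue and age. The 4 mutants of cerebrum P75 are high in both genes (Cdkn1a 75.7 to 120, Bbc3 20.5 to 29.0 CPM), while cerebellar mutant 4 has the highest Cdkn1a level (205 CPM) with Bbc3 at 10.3 CPM.

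Whether the genotype effect changed with age in cerebrum was tested as an interaction, each age against its own wild types. Among all 19273 genes 1.36% were called, 1.04% with a larger effect at P75 (edgeR quasi-likelihood F test), and among the members Pmaip1 alone was. Its effect was 2.11 ± 0.49 larger at P75 on the log2 scale (adjusted p = 0.0413). The call was lost when any of 11 of the 16 libraries was left out (log2 differences of 1.72 to 2.42 over all 16, adjusted p = 0.0108 to 0.111). The effects on Mdm2 (0.82 ± 0.21, edgeR adjusted p = 0.0668) and Ccng1 (0.95 ± 0.28, adjusted p = 0.12) were also numerically larger at P75, as was that on Bbc3 (1.29 ± 0.51, adjusted p = 0.258). Without wild type 4 of P42, the library with the lowest Bbc3 level, Bbc3 had 1.70 (edgeR adjusted p = 0.00196). Without P42 mutant 1, the library with the highest Cdkn1a level at that age, Mdm2 (0.93, adjusted p = 0.0157) and Ccng1 (1.2, adjusted p = 0.0118) were called. Each of these genes stayed uncalled in the other 15 of 16 leave-outs. Over all 16, Bbc3 had 0.97 to 1.70 (edgeR adjusted p up to 0.469), Mdm2 0.66 to 0.93 (up to 0.182) and Ccng1 0.79 to 1.2 (up to 0.276). The effect on Cdkn1a differed by 0.30 ± 0.34 and that on Phlda3 by -0.47 ± 0.34 (edgeR adjusted p = 0.738 and 0.551). A difference between the ages is also one in days since tamoxifen and between separately deposited tables. The P75 libraries were all from males, and the sex term did not let the genotype effect differ by sex. The thalamus, hypothalamus and midbrain markers summed higher in mutants at P42 (760 to 1380 against 225 to 458 CPM) and overlapped at P75 (623 to 659 against 564 to 673 CPM). The parts of sex and of these markers in the interaction were not tested.

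Between the tissues at P42 no gene of 19614 had a different genotype effect in edgeR (0%; 6.18% at an unadjusted p under 0.05), while DESeq2 called 19 genes and no member. The effects on Ccng1 and Mdm2 were 0.78 ± 0.32 and 0.49 ± 0.19 larger in cerebellum, those on Phlda3 and Eda2r differed by -1.07 ± 0.52 and 1.66 ± 0.93, and all 4 had an adjusted p = 0.732. The other 6 members differed by -0.46 to 0.29. Both genes with an unadjusted p under 0.05 were feedback targets, Ccng1 and Mdm2.

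In wild types alone, 2 members differed between the tissues at P42, beside 14.1% higher and 16.4% lower in cerebellum among 17964 genes (edgeR quasi-likelihood F test). Cdkn1a was higher in cerebellum, at 49.5 ± 8.37 against 29.0 ± 7.53 CPM on a common scale (log2 difference 0.67 ± 0.14, adjusted p = 0.00456). Ccng1 was lower in cerebellum, at 53.8 ± 3.41 against 85.2 ± 10.3 CPM (-0.68 ± 0.13, edgeR adjusted p = 0.00237). Neither gene's groups overlapped, nor did those of Bbc3 (10.7 ± 1.89 against 5.39 ± 3.6 CPM), as for 17.6% of all genes with cerebellum higher and 18.8% with it lower. Bbc3 (0.98 ± 0.50, adjusted p = 0.166) and the other 7 members, at -0.79 to 0.64, did not pass the test.

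Per kilobase of gene length, Ccng1 was the most abundant member in wild type cerebrum at P75 (23.8 ± 3.62 CPM per kb), followed within its spread by Phlda3 (21.0 ± 3.06) and then Bax (15.7 ± 2.12). Mdm2 (10.5 ± 1.27) and Cdkn1a (9.96 ± 1.56) came next and did not differ beyond their spread. Aen (3.75 ± 0.651), Trp53inp1 (3.43 ± 0.449) and Bbc3 (3.09 ± 0.459) formed a lower step, in which Trp53inp1 lay within the spread of both neighbours and Aen and Bbc3 differed by slightly more than either SD, above Pmaip1 (1.2 ± 0.12) and Eda2r (0.0727 ± 0.0327 CPM per kb). In the P75 mutants Ccng1 (44.0 ± 9.71) and Phlda3 (37.0 ± 7.08) led, followed by Cdkn1a (26.6 ± 6.13) and Bax (26.5 ± 2.57), which did not differ beyond their spread. In mutant cerebellum Cdkn1a was first by its mean, with a wide spread (35.6 ± 20.9 CPM per kb).

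Within the groups the members did not all vary together. With levels centred on the 6 group means, Cdkn1a correlated over the 24 libraries with Ccng1 (r = 0.80), Pmaip1 (0.75) and Trp53inp1 (0.70), and with Phlda3 (0.08) and Eda2r (-0.13) hardly at all. Of 16267 genes compared, the 5 most like Cdkn1a by this measure were Ctgf (0.82), Pla2g4e (0.82), Irak2 (0.81), Ccng1 (0.80) and Plaur (0.79). The 5 most like Eda2r were Nhsl1 (0.88), Ctbp2 (0.80), Catsperg1 (0.78), Nt5c1a (0.77) and Samhd1 (0.76). Eda2r itself was scarce, with 2 to 69 counts per library and its highest level (4.87 CPM) in cerebellar mutant 1, so its correlations rest on low counts. These values share libraries, depth and dissection, and stand as descriptions.

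Trp53 itself rose modestly in cerebrum at P75, to 30.6 ± 4.32 from 20.7 ± 1.42 CPM (log2 fold change 0.56 ± 0.11, edgeR adjusted p = 0.00447). At P42 it was at 23.8 ± 2.82 against 19.3 ± 1.90 CPM in cerebrum (0.30 ± 0.14, adjusted p = 0.403) and at 27.8 ± 3.94 against 20.4 ± 0.531 CPM in cerebellum (0.45 ± 0.14, adjusted p = 0.967). Neither passed the test. The groups did not overlap in either tissue, mutants higher, as for 3.53% of all genes in cerebrum and 1.85% in cerebellum. Of the 17 kinases and regulators of p53, Trp53 included, 3 rose at P75 and none fell, beside 7.66% and 6.62% of all genes, and the median was 0.08. Beside Trp53 these were Rchy1, which encodes a p53 ubiquitin ligase (0.44 ± 0.08, adjusted p = 0.00342), and Ppm1d, the phosphatase that ends p53 signalling and is itself a p53 target (0.32 ± 0.10, adjusted p = 0.0424). The Ppm1d call held without mutant 3 or wild type 4 and was lost without any of the other 6 libraries (0.29 to 0.33, adjusted p up to 0.115).

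Of 34 further p53 targets, 33 could be tested at P75, and 17 rose and 1 fell, beside 7.66% and 6.62% of all genes. Their median log2 fold change was 0.45. The smallest p belonged to Sesn2, a sestrin that restrains mTORC1 and is also an ATF4 target, at 75.4 ± 18.1 against 16.7 ± 1.37 CPM (2.17 ± 0.15, edgeR adjusted p = 1.09e-06). Psrc1, a spindle protein (2.40 ± 0.17, adjusted p = 1.63e-06), Gtse1, a microtubule-binding protein that also restrains p53 (3.71 ± 0.43, 6.47e-05), and Sfn, the 14-3-3 sigma gene (1.64 ± 0.20, 1.19e-04), followed. The gene that fell was Zfp365 (-0.36 ± 0.09, adjusted p = 0.0175), singled out after its values were seen. Of these targets 32 were tested in each tissue at P42 and none was called by edgeR, with medians of 0.05 in cerebrum and 0.16 in cerebellum. At an unadjusted p under 0.05 there were 5 in cerebrum, near the 12.6% of all genes, and 6 in cerebellum, beside 4.65% of all genes. The 2 with the smallest p there were Sfn (1.63 ± 0.27, adjusted p = 0.165) and Sesn2 (1.04 ± 0.20, 0.23) in cerebrum, both called by DESeq2 (1.62 and 1.04, adjusted p = 0.000248 and 0.000855), and Psrc1 (2.04 ± 0.54, 0.866) and Perp (-0.53 ± 0.17, 0.967) in cerebellum. In the age interaction 3 of these 34 targets were called, all with a larger effect at P75, beside 1.04% of all genes: Polk (1.14 ± 0.23, adjusted p = 0.0199), Btg2 (1.25 ± 0.27, 0.0259) and Sesn2 (1.13 ± 0.26, 0.0359).

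**Figure D5:**
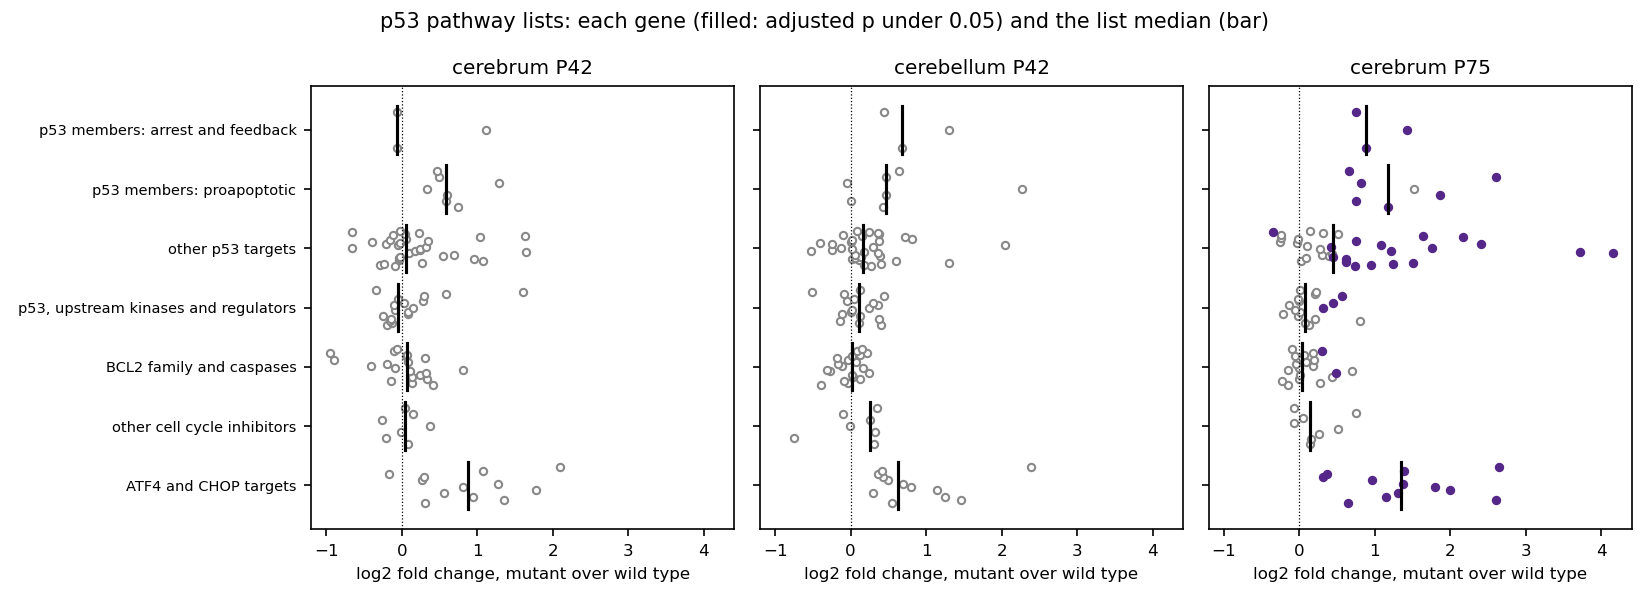
Log2 fold change of mutant over wild type for each tested gene of 7 lists, in 3 comparisons. Filled points have an adjusted p under 0.05 and bars are list medians. At P75 the medians of the p53 target lists and of the ATF4 and CHOP targets lie to the right of 0. The list of BCL2 family genes and caspases, which leaves out the members Bbc3, Pmaip1 and Bax, is spread about 0, as are the other cell cycle inhibitors.

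The list of BCL2 family genes and caspases leaves out the members Bbc3, Pmaip1 and Bax. These 3 belong to the BCL2 family and were called higher at P75 (log2 fold changes 1.86, 2.6 and 0.75). Of the 20 genes of the list tested at P75, 2 rose and none fell, with a median of 0.04. Over all genes 7.66% were called higher and 6.62% lower, so the count for the genes on this list is near the background. The 2 that rose were Mcl1, the antiapoptotic partner that NOXA binds (0.30 ± 0.08, edgeR adjusted p = 0.0192), and Bid, a BH3-only gene (0.48 ± 0.15, adjusted p = 0.044). Bid kept its call only without mutant 4 and lost it without any other library (0.39 to 0.53, adjusted p up to 0.151). Mcl1 lost it without mutant 1 (0.27, adjusted p = 0.0672), mutant 2 (0.26, 0.0565) or wild type 4 (0.27, 0.0712). None of the 8 other cell cycle inhibitors tested was called (edgeR; 2 at an unadjusted p under 0.05, beside 28.8% of all genes), the smallest p being those of Rbl1 (0.76, adjusted p = 0.0723) and Cdkn2c (0.51, 0.159). At P42 neither list had a gene called by edgeR; at an unadjusted p under 0.05 the BCL2 and caspase list had 5 genes in cerebrum and 0 in cerebellum, and the inhibitors had 0 and 2, beside 12.6% and 4.65% of all genes.

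Targets of ATF4 and CHOP, the transcription factors of the integrated stress response, were also higher at P75. All 12 were called higher, beside 7.66% of all genes, with a median log2 fold change of 1.34. They included Slc7a3 (1.38 ± 0.09), Ddit3, which encodes CHOP (1.80 ± 0.12), Chac1 (1.99 ± 0.15) and Trib3 (2.64 ± 0.24). At P42 the medians of this list were 0.88 in cerebrum and 0.62 in cerebellum, with no gene called by edgeR in either, and 8 and 9 of the 12 at an unadjusted p under 0.05, beside 12.6% and 4.65% of all genes. DESeq2 called Mthfd2 (1.27, adjusted p = 1.05e-05) and Slc7a3 (1.07, 0.000111) in cerebrum and Trib3 (2.39, 0.0284) in cerebellum, the named genes of this list at P42 that it called. As background, Bbc3 and Pmaip1 can also be induced by this response, and the part of each factor in their levels was not tested.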

How the data were processed

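PolyA RNA of 24 mouse brain libraries was analysed from 2 deposited tables of read counts per gene, whole numbers with no scaling. The submitters' processing notes name HISAT2, DESeq2 and build mm10; these give no versions, and the read counter and annotation are not given in sources used here. The authors' deposited comparison tables hold, per the file headers, a mean signal (baseMean), a log2 fold change, its standard error and Wald statistic (each a score), the p-value and the adjusted p-value. They were only set beside the tests here.

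The members, gene lists and tests were chosen with earlier results of these data known. The groups of a tissue and age were fitted alone in R 4.3.3 with edgeR 4.0.16: filterByExpr, TMM scaling, quasi-likelihood F test, two-sided, sex as a covariate at P42, Benjamini-Hochberg adjustment over all genes tested, threshold 0.05. Interactions used 16 libraries each with sex. Levels are CPM on the TMM-scaled total, mean ± SD; effects are log2 fold changes ± SE. A marker level is the mean of log2 CPM (prior count 2) over a list. The GC slope used genes of at least 5 CPM and the longest GENCODE M21 transcript. The text names all members, Trp53, Polr3a, Esr1, and of each list up to 4 called genes with the smallest p, or else 2; for likeness, 5 genes of at least 1 CPM on average. Labelled sex matched sex-linked expression in 24 of 24 libraries. Scripts were tested on simulated counts. No pair of libraries of the same group agreed within sampling noise (chi-square per gene at least 3.78), and pairs across groups were not compared.

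Alternatives were DESeq2 1.42.0, RLE or library-size scaling, no filter or at least 1 CPM in 4 libraries, adjusted p under 0.01, no sex term, males only, marker and GC covariates, a replicate block, and leaving out libraries.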

Additional observations from a re-analysis of the deposited data

Results flagged for a closer look

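In 3 of the 60 sets of 4 libraries examined (10 members in 6 groups), 1 library lay farther from the others than Dixon's 95% limit allows; chance gives about 1 in 20. Ccng1 in wild type cerebellum was at 50.4 CPM in replicate 4 and at 57.6 to 58.0 CPM in the others. Mdm2 in wild type cerebellum was at 61.6 CPM in replicate 2 and at 56.3 to 57.0 CPM in the others. Bax in wild type cerebrum at P75 was at 19.8 CPM in replicate 2, the library with the lowest GC slope of that age (-0.208), and at 25.9 to 26.9 CPM in the others.

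The genotype effect in cerebrum differed between P42 and P75 for 1 member and 3 further p53 targets by the interaction test in edgeR. The log2 differences were 2.11 for Pmaip1, 1.14 for Polk, 1.25 for Btg2 and 1.13 for Sesn2, each larger at P75. Leaving out 1 of the 16 libraries ended the call of Pmaip1 in 11 cases, of Sesn2 in 11, of Btg2 in 9 and of Polk in 6, with the same direction throughout.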

How the results depend on the processing

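The rise of 9 members in cerebrum at P75 was 8 to 10 calls in every alternative, and no member or other named gene changed direction there. Genes called there numbered 1086 at an adjusted p under 0.01, and 1356 to 2783 when 1 library was left out, with 1356 without mutant 1 and 1634 without wild type 4.

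Calls at P42 depended on the tool and filter. In cerebrum, 3 genes were called in the main test, 206 by DESeq2, 1312 with no filter, 8 with the replicate block, 1 with the GC slope, and 0 with library-size scaling, the stricter filter, adjusted p under 0.01, no sex term, males only, the thalamus and midbrain marker covariate, or mutants 3 and 4 left out. Leaving out 1 library gave 0 to 11. Of the members, 3 were called by DESeq2 and 3 with no filter, and 0 when any 1 library was left out. In cerebellum, 2 genes were called in the main test, 25 by DESeq2, 153 with no filter, 1 to 2 when 1 library was left out, and 1 each at adjusted p under 0.01, with no sex term, males only, the replicate block, the choroid plexus covariate or the GC slope. Of the members, 1 was called by DESeq2 and 3 with no filter.

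The interaction with tissue gave 0 genes, 19 by DESeq2, 279 with no filter and 0 to 2 when 1 library was left out; with no filter 1 member (Phlda3) was called. The interaction with age gave 263 genes, 606 by DESeq2, 1176 with no filter, 100 at adjusted p under 0.01 and 124 to 1169 when 1 library was left out, highest without P42 mutant 1. Members called there numbered 1, 3 by DESeq2, 4 with no filter, 0 at adjusted p under 0.01, 0 with no sex term and 0 to 3 when 1 library was left out. Between wild type tissues 5472 genes became 3311 at adjusted p under 0.01, 2658 with the replicate block and 4074 to 5856 when 1 library was left out, and the 2 members became 5 with no filter, 1 with the block, where Cdkn1a lost its call (0.724, adjusted p = 0.0598), and 2 to 3 when 1 library was left out.

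These log2 fold changes at P42 changed sign, none passing the test; the cause was not tested. In cerebrum, Ccng1 was 0.261 without mutants 3 and 4, 0.486 with the thalamus and midbrain covariate, 0.112 in males, 0.0776 with the GC slope and -0.32 to 0.0681 when 1 library was left out. Mdm2 was 0.000534 with library-size scaling and, in that order, 0.0454, 0.132, 0.215, 0.126 and -0.18 to 0.0165. Eda2r was -0.362, -2.28 with the covariate, -0.502 in males and -0.15 to 0.86. Bbc3 was -0.139 with the GC slope, and Cdkn2d (0.38) was -0.107 with it and -0.0901 in males. In cerebellum, the choroid plexus covariate gave Bbc3 -1.41, Pmaip1 -0.362 and Phlda3 0.57; Phlda3 was 0.097 with no sex term and 0.233 with the block. Bax was 0.000697 by DESeq2, 0.0312 with no sex term, 0.0906 in males and 0.326 with the GC slope. With 1 library left out, Bbc3 ranged from -0.57 to 0.86, Pmaip1 from -0.0213 to 0.72, Bax from -0.36 to 0.21 and Phlda3 from -0.33 to 0.22.

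Replicate numbers were not treated as pairs. Same-numbered mutants and wild types had correlations of -0.34 to 0.25 at P42 and 0.03 to 0.14 at P75 in their deviations from group means. As a block the number gave 8 and 1 genes in cerebrum and cerebellum at P42 and 3537 at P75, where Eda2r was also called (adjusted p = 0.0204). At P75 each library correlated best with its own number, a hint from the data and not from the design. Eda2r and Pmaip1, the scarcest members, are those most limited by depth, with wild type means of 0.429 and 3.17 CPM at P75.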
